A study of Mus musculus with 8 samples.

Results

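The cells described here came from 384-well plates of sorted mouse skin epidermis and were chosen for their transcripts of *Cst6*, *Defb6* and *Krt79*, which mark the upper hair follicle. A well was taken when these 3 genes made up at least 0.4% of its transcripts, when *Krt1* and *Krt10* together made up less than 0.5%, and when it held fewer than 4 transcripts of *Cd3d*, *Cd3e*, *Cd3g* and *Cd7* and fewer than 10 of *Cd74*, *H2-Ab1* and *H2-Aa*. Of 2304 wells on 6 plates, 1109 held at least 1000 transcripts, 1009 of these had less than 10% of *Kcnq1ot1*, and 904 of those passed the limits on T cell and MHC class II transcripts and are called epidermal wells. Of the 904 epidermal wells, 107 (11.8%) were upper follicle wells and 797 were not. The choice used measured values, so differences between the 107 wells and the other epidermal wells of the same plates are described and were not tested.

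The study asked which epidermal cells express *Troy* (*Tnfrsf19*, a receptor of the TNF receptor family) and what becomes of their progeny. All mice were adult C57BL/6 animals and carry Troy-EGFP-IRES-CreERT2, a cassette knocked into the *Troy* locus in place of its coding region, so EGFP and the inducible recombinase follow the *Troy* promoter. 4 plates, 1 from each of 4 mice, held EGFP+ and EGFP- cells (Troy-EGFP mice 1 to 4). 2 plates, 1 from each of 2 mice, held tdTomato+ and tdTomato- cells of mice with both Troy-EGFP-IRES-CreERT2 and Rosa26-LSL-tdTomato (traced mice 1 and 2), which were double homozygous for the knockin alleles and were collected 7 days after tamoxifen. Cells of both experiments were also sorted on ITGA6, a basal cell integrin, with ITGA6-negative and ITGA6bright cells among those sorted. Only the traced experiment had a further ITGA6dim gate, and the paper placed nearly all EGFP+ cells of that gate in its upper follicle cluster. The gate that filled each well was not used here. Bulk mRNA of 2 further Troy-EGFP-IRES-CreERT2 mice covered 3 sorted populations of each mouse, namely viable cells, ITGA6bright EGFP+ cells and ITGA6bright EGFP- cells.

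The upper hair follicle comprises the infundibulum, which opens to the skin surface, and the junctional zone and isthmus below it, from which the sebaceous gland branches off. Its cells keep the lumen of the follicle open, form a cornified lining that is shed into the canal, and secrete defence peptides where the barrier meets hair, sebum and microbes. *Krt79* encodes a keratin of the cells that line the follicle canal, *Cst6* encodes cystatin M/E, an inhibitor of the cysteine proteases of the cornifying layers, *Defb6* encodes a beta-defensin, and *Gata6* encodes a transcription factor of the upper follicle and the sebaceous duct. *Klk7* encodes a kallikrein that cleaves the junctions between corneocytes, and *Sprr1a* encodes a small proline-rich precursor of the cornified envelope.

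*Krt79* and *Defb6* were in the rule, and *Sprr1a* had the largest ratio of the genes outside it with 20 CPM added to both sides. The 250 bases before the RefSeq start of each on GRCm38.p6 are shown for these leading genes, 5′ to 3′ on the gene's strand, with each GATAA, read on both strands, in capitals. GATAA is the core that GATA family factors are known to bind, and it was the only motif searched. The *Krt79* window is chr15:101940325-101940574 (minus strand), the *Defb6* window chr8:19225228-19225477 (plus strand) and the *Sprr1a* window chr3:92485882-92486131 (minus strand).
Krt79: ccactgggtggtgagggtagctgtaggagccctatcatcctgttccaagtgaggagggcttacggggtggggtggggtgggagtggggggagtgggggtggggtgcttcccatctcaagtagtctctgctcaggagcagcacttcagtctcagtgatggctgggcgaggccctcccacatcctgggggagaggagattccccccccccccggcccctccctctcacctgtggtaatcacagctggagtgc
Defb6: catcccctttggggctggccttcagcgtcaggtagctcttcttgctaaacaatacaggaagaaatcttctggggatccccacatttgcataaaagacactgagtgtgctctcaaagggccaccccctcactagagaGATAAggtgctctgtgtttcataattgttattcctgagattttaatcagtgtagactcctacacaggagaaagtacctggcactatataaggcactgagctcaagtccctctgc
Sprr1a: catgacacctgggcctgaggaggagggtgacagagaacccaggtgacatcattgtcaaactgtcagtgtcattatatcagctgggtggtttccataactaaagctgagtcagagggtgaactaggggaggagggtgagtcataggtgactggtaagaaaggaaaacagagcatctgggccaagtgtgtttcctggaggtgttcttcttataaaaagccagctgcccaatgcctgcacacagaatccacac
The *Defb6* window held 1 match, whose first base lay 114 bases before the start, and these letters were not in the other 2 windows. Of all 27025 genes with a window of this length, 25.5% held a match. Of the 8787 genes described below, 6786 had a window and 16.8% of these held a match, as did 24.1% of the windows of 141 of the 203 genes that were higher in the upper follicle wells and 17% of those of 271 of the 361 that were lower. A match is a string of letters and was not shown to be a bound site.

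*Tnfrsf19* itself was sparse. The upper follicle wells of Troy-EGFP mice 2, 3 and 4 and traced mice 1 and 2 held 0, 4, 9, 2 and 0 transcripts of *Tnfrsf19*, and the other epidermal wells of the 6 plates, Troy-EGFP mouse 1 first, held 3, 17, 33, 47, 3 and 7. Over all epidermal wells this was 36.7, 50.8, 58.5 and 66.9 CPM (a gene's share of the transcripts of the summed wells, scaled to 1000000) in the 4 Troy-EGFP plates and 6.19 and 9.42 CPM in the 2 traced plates. CEL-Seq2 reads the 3′ end of a transcript, and whether the knockin removes that end is not given in the sources used here. By plate the upper follicle wells were at 0, 75.4 and 137 CPM in Troy-EGFP mice 2, 3 and 4 and at 16.5 and 0 CPM in the traced mice, against 58.1, 57 and 61 CPM and 4.37 and 11 CPM in the other wells, so they lay above the others on 3 plates and below on 2. The traced plates gave a larger part of the upper follicle transcripts than of the others, so the pooled levels, 38.4 and 36.1 CPM, are not a like comparison.

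Upper follicle wells were found on 5 of the 6 plates. Troy-EGFP mice 2, 3 and 4 gave 11 of 114, 15 of 163 and 19 of 198 epidermal wells, or 9.65% (95% exact binomial interval 4.92 to 16.6), 9.2% (5.24 to 14.7) and 9.6% (5.88 to 14.6). Traced mice 1 and 2 gave 33 of 218 and 29 of 184, or 15.1% (10.7 to 20.6) and 15.8% (10.8 to 21.8). Troy-EGFP mouse 1 gave 0 of 27, which allows up to 11.1% at a floor of 3 wells and up to 12.8% by the exact binomial interval. This plate had only 71 wells with 1000 transcripts, of which 27 had less than 10% of *Kcnq1ot1*. These intervals cover counting error only. Both traced plates lay above all Troy-EGFP plates, at 15.4% ± 0.441 (SD, n = 2) against 7.11% ± 4.75 (SD, n = 4), a difference of 8.34 percentage points (two-sided exact permutation test over plates, p = 0.133, the smallest p that 15 arrangements allow). Without Troy-EGFP mouse 1 the mean of the other 3 plates was 9.48% ± 0.244. How the gates shared out the wells also sets this percentage, and genotype, tamoxifen, gates, sex makeup and sequencing run differ together between the experiments and cannot be told apart.

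The upper follicle wells held a median of 3125 transcripts and 1326 genes, against 3191 transcripts and 1310 genes in the other epidermal wells, and ranged from 1029 to 13143 transcripts. Their median depth was 1800, 3227 and 2934 transcripts in Troy-EGFP mice 2, 3 and 4 and 3462 and 3613 in traced mice 1 and 2, against 2361, 3510 and 3405 and 3344 and 3360 in the other wells of these plates. They were thus shallower on the 3 Troy-EGFP plates and deeper on the 2 traced plates. No 2 wells held identical values. The 384 well barcodes are shared by all plates by design, and 16 well numbers held an upper follicle well on more than 1 plate. Markers of other cell types were summed as well, of which the rule itself kept 4 T cell and 3 Langerhans cell markers low. The 9 T cell markers summed to between 15.3 and 95.4 CPM per plate (4 of the 9 at 0 over all plates), against 55.2 to 232 CPM in the other epidermal wells, and the 10 melanocyte markers to between 0 and 95.4 CPM, with 7 of the 10 at 0. The 9 Langerhans cell markers summed to between 740 and 2074 CPM against 147 to 811 CPM, of which *Epcam*, which epithelial cells express too, was the largest part, and *Cd74*, a gene of the rule, was at 12.8 CPM against 15.8 CPM. The 6 endothelial markers summed to 23.9, 37.7 and 45.8 CPM in Troy-EGFP mice 2, 3 and 4, above the 3.42, 6.9 and 6.48 CPM of the other wells of these plates, and to 0 in both traced mice, with 3 of the 6 at 0 over all plates. The upper follicle wells of these Troy-EGFP mice held 41920, 53060 and 65566 transcripts of all genes, so their endothelial sums rest on very few transcripts. The 7 fibroblast markers summed to between 8.26 and 47.7 CPM against 35 to 91.8 CPM. The part of these cell types in the differences below was not tested.

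The 3 genes of the rule were present together in most of the chosen wells. All 3 were detected in 84 wells, *Defb6* and *Krt79* without *Cst6* in 16, *Cst6* and *Krt79* in 3, *Cst6* and *Defb6* in 1, *Defb6* alone in 2 and *Krt79* alone in 1. The most abundant of the 3 was *Defb6* in 52 wells, *Krt79* in 28 and *Cst6* in 27. Their summed share ran from 0.414% to 21% of the transcripts of a well, with a median of 3.59% and quartiles of 1.77% and 7.22%. The median share was higher in the Troy-EGFP plates, at 4.41%, 5.62% and 6.7%, than in the traced plates, at 2.94% and 2.85%.

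The threshold fell in a thinly filled range. The 3 wells just inside it had 0.414%, 0.445% and 0.52%, from 7, 16 and 13 transcripts, and the 3 wells just outside it among those with less than 0.5% of *Krt1* and *Krt10* had 0.348%, 0.315% and 0.302%, from 20, 17 and 18 transcripts. In all, 12 upper follicle wells lay between 0.4% and 0.8%, and 15 epidermal wells lay between 0.2% and 0.4%, of which 4 were past the limit on *Krt1* and *Krt10*, at 0.242% to 0.306%. A further 3 wells passed 0.4% but held 0.5% or more of *Krt1* and *Krt10*, with medians of 1.74% and 0.971%, and were counted with the other epidermal wells.

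**Figure D1:**
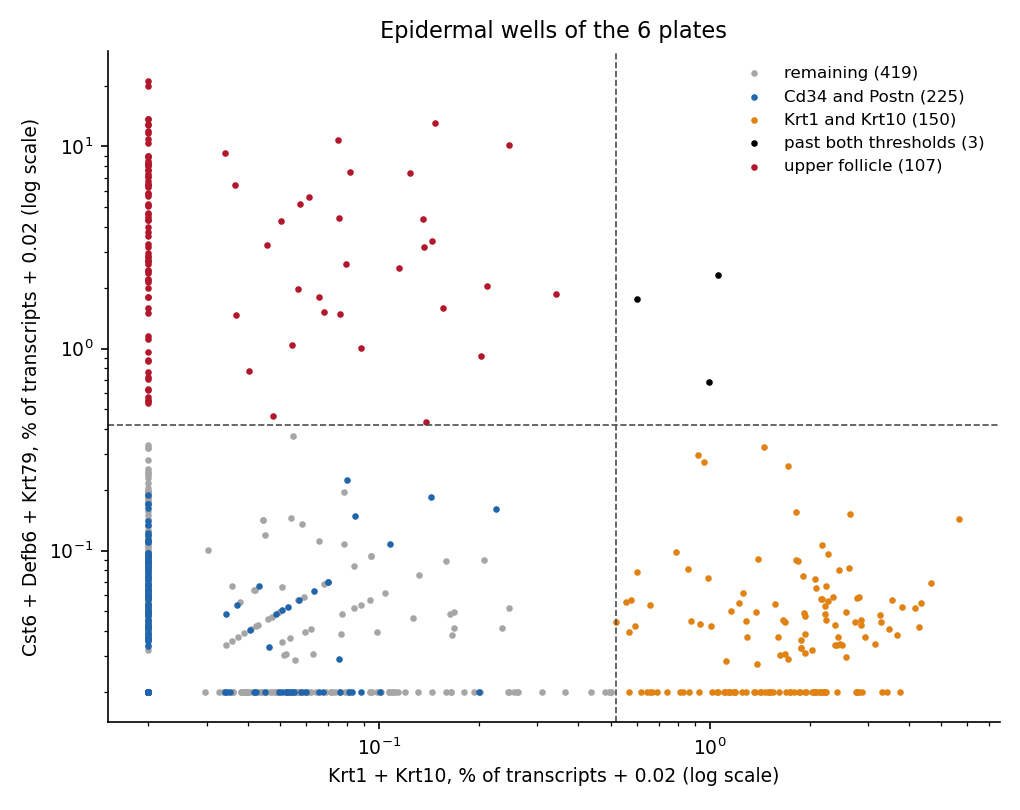
Each point is 1 of the 904 epidermal wells, placed by the share of *Krt1* and *Krt10* (x axis) and of *Cst6*, *Defb6* and *Krt79* (y axis) in its transcripts, both in percent plus 0.02 on log scales. The 107 upper follicle wells fill the upper left, above 0.4% and left of 0.5% (dashed lines), and 3 wells lie past both lines.

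The choice of wells fixed high levels of *Cst6*, *Defb6* and *Krt79*, which are given as a description. *Cst6* was at 14664, 23584 and 26756 CPM in the upper follicle wells of Troy-EGFP mice 2, 3 and 4 and at 23022 and 13381 CPM in traced mice 1 and 2. *Defb6* was at 14332, 20163 and 23606 CPM and at 10513 and 13039 CPM. *Krt79* was at 5781, 14192 and 11255 CPM and at 14923 and 14931 CPM. In the other epidermal wells of the 6 plates these genes reached at most 102 CPM (*Cst6*), 174 CPM (*Defb6*) and 308 CPM (*Krt79*). *Cst6* was detected in 82.2% of the upper follicle wells, in 19.4% of the other epidermal wells and in 10.2% of 59 wells with T cell transcripts, *Defb6* in 96.3%, 21.8% and 8.47%, and *Krt79* in 97.2%, 17.7% and 10.2%. T cells should lack these genes, so their share is a measure of background, at a median depth of 1717 transcripts.

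The 3 markers outside the rule were high in the same wells when summed per plate, and the sums of the 5 plates did not overlap those of the other wells, although single wells did. *Sprr1a* was at 5067, 1151 and 2189 CPM in Troy-EGFP mice 2, 3 and 4 and at 6508 and 4846 CPM in traced mice 1 and 2, against 6.9 to 50.5 CPM in the other epidermal wells of the 6 plates. *Klk7* was at 1195, 434 and 320 CPM and at 3126 and 889 CPM, against 0 to 45.2 CPM. *Gata6* was at 286, 434 and 442 CPM and at 223 and 220 CPM, against 11.6 to 42.6 CPM. The 2 genes of cornification were thus lowest in Troy-EGFP mice 3 and 4, and *Gata6* was lowest in the traced mice. *Sprr1a* was detected in 65.4% of the upper follicle wells, *Gata6* in 50.5% and *Klk7* in 39.3%, against 7.53%, 5.27% and 3.26% of the other epidermal wells and 5.08%, 0% and 5.08% of the T cell wells. The 0 of 59 T cell wells for *Gata6* allows up to 5.08% of wells with a transcript at the same floor of 3 wells. At least 1 of the 3 was found in 85 of the 107 wells, and all 6 markers in 25. These 3 markers were named with earlier results of these data known, so their levels are a description and no independent check of the label.

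**Figure D2:**
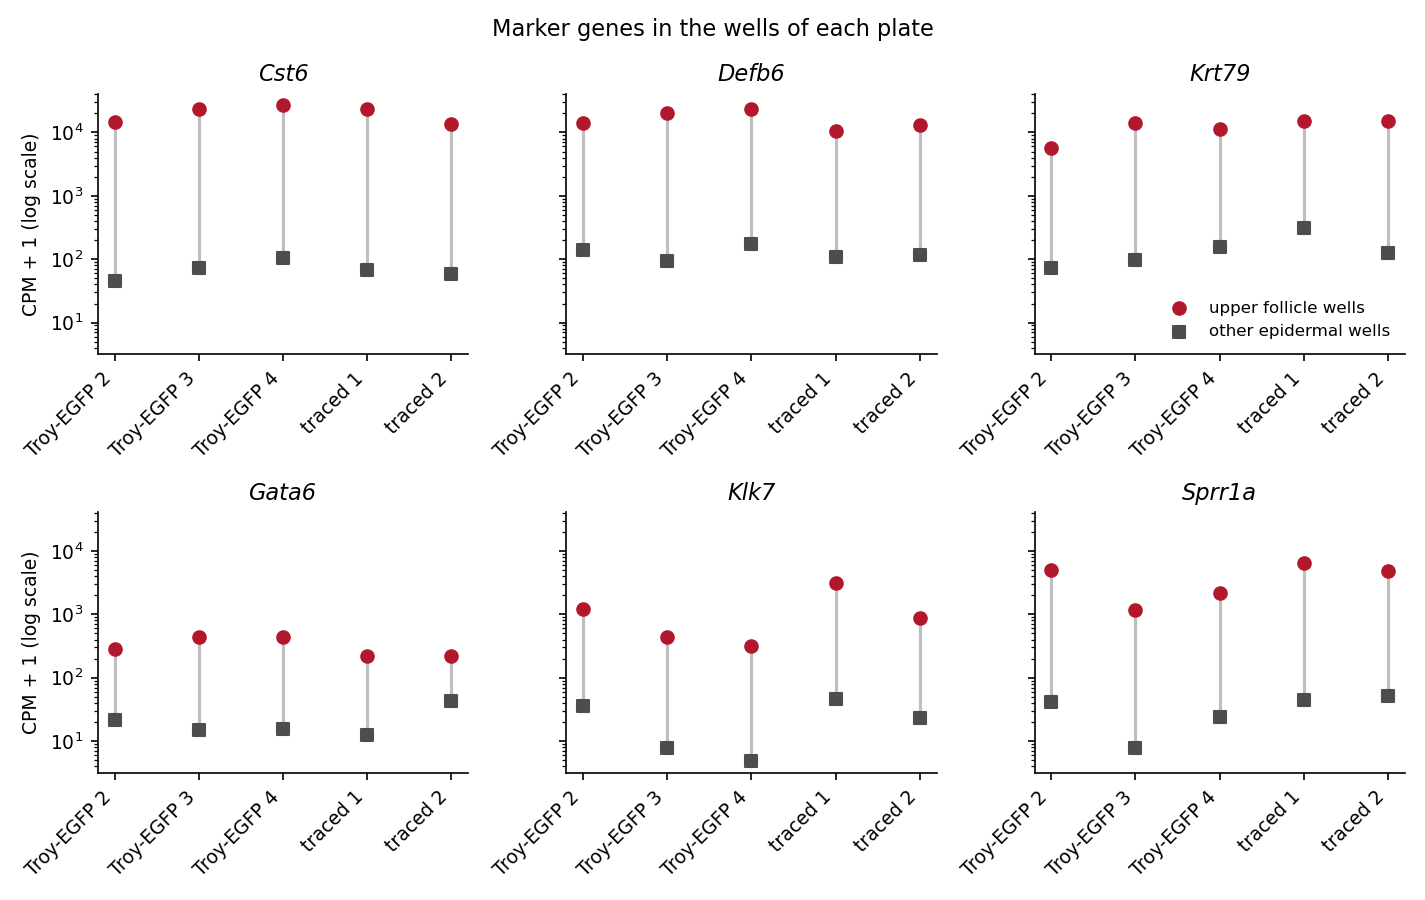
CPM plus 1 (log scale) of the 6 markers in the summed upper follicle wells (circles) and the summed other epidermal wells (squares) of the 5 plates with upper follicle wells. *Cst6*, *Defb6* and *Krt79* chose the wells, and *Gata6*, *Klk7* and *Sprr1a* did not, yet each circle lies above the squares of all plates.

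The chosen wells differed among themselves along a few genes. Across the 107 wells the shares of *Klk7* and *Sprr1a* went together (Spearman's rho 0.66), and both went against *Krt14*, the keratin of basal cells (-0.41 and -0.39). *Cst6* went with *Krt79* (0.63) and *Defb6* (0.53) and against *Krt14* (-0.43), while *Krt79* was only weakly related to *Defb6* (0.32) and *Gata6* (0.15). These are descriptions over wells that share 5 plates and differ in depth, and shares of 1 total are not free of one another. *Krt14* was detected in 78.5% of the upper follicle wells and in 75.5% of the other epidermal wells.

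Across all genes, 8787 with at least 30 transcripts over the epidermal wells and with a symbol in both annotations of the plates were described. A gene was called higher when its CPM in the upper follicle wells, with 20 CPM added to both sides, was at least 2 times that in the other epidermal wells and it was higher in each of the 5 plates, and lower in the mirror case. By this rule 203 genes (2.31%) were higher and 361 (4.11%) lower. Median log2 ratios below are on this scale, and the median over all genes was -0.09. The wells were chosen on these same data, so nothing is read from the size of these counts.

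*Krt17* and *Alox12e* were among the abundant genes outside the rule. *Krt17*, a keratin of hair follicles, was at 7301 CPM against 597 CPM in the other epidermal wells, with 4935, 6715, 8563, 7206 and 7841 CPM in the 5 plates. *Alox12e*, an epidermal lipoxygenase, was at 7871 CPM against 654 CPM, with 3229.9, 9808, 4849, 7877 and 10516 CPM in the same order. Within the other epidermal wells *Krt17* was highest, at 1297 CPM, in the 225 wells with *Cd34* and *Postn* (at least 3 transcripts of both together), and *Alox12e*, at 1344 CPM, in the 150 wells with *Krt1* and *Krt10*. Both were higher in the upper follicle wells than in either group. *Cstb*, which encodes cystatin B, was at 4063 CPM against 456 CPM.

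Other genes were low elsewhere, at 60.1 CPM or less over the other epidermal wells of all plates. Single plates could lie above this, as *Psapl1* did at 96 CPM in the other wells of Troy-EGFP mouse 4. *Teddm3* was at 476 CPM against 4.6 CPM. *Krt23*, a keratin gene, had 70 transcripts in the upper follicle wells against 3 in all others, a 182-fold difference in CPM (counting interval 59.7 to 903). *Slc46a2* had 61 against 2, a 238-fold difference (63 to 2006). *Gsdma*, a gasdermin of the upper follicle and the suprabasal epidermis, was at 548 CPM against 16.7 CPM, with 95.4, 358, 320, 960 and 494 CPM in the 5 plates. *Psapl1*, a prosaposin-like gene, was at 1216 CPM against 60.1 CPM and ran from 167 to 2041 CPM over the plates. *Skint3*, *Ano9* and *Aadac* were at 448, 392 and 320 CPM against 41.7, 37.4 and 19.7 CPM. *Atp6v1c2*, a subunit of the vacuolar proton pump, was at 225 CPM against 14.4 CPM.

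**Figure D3:**
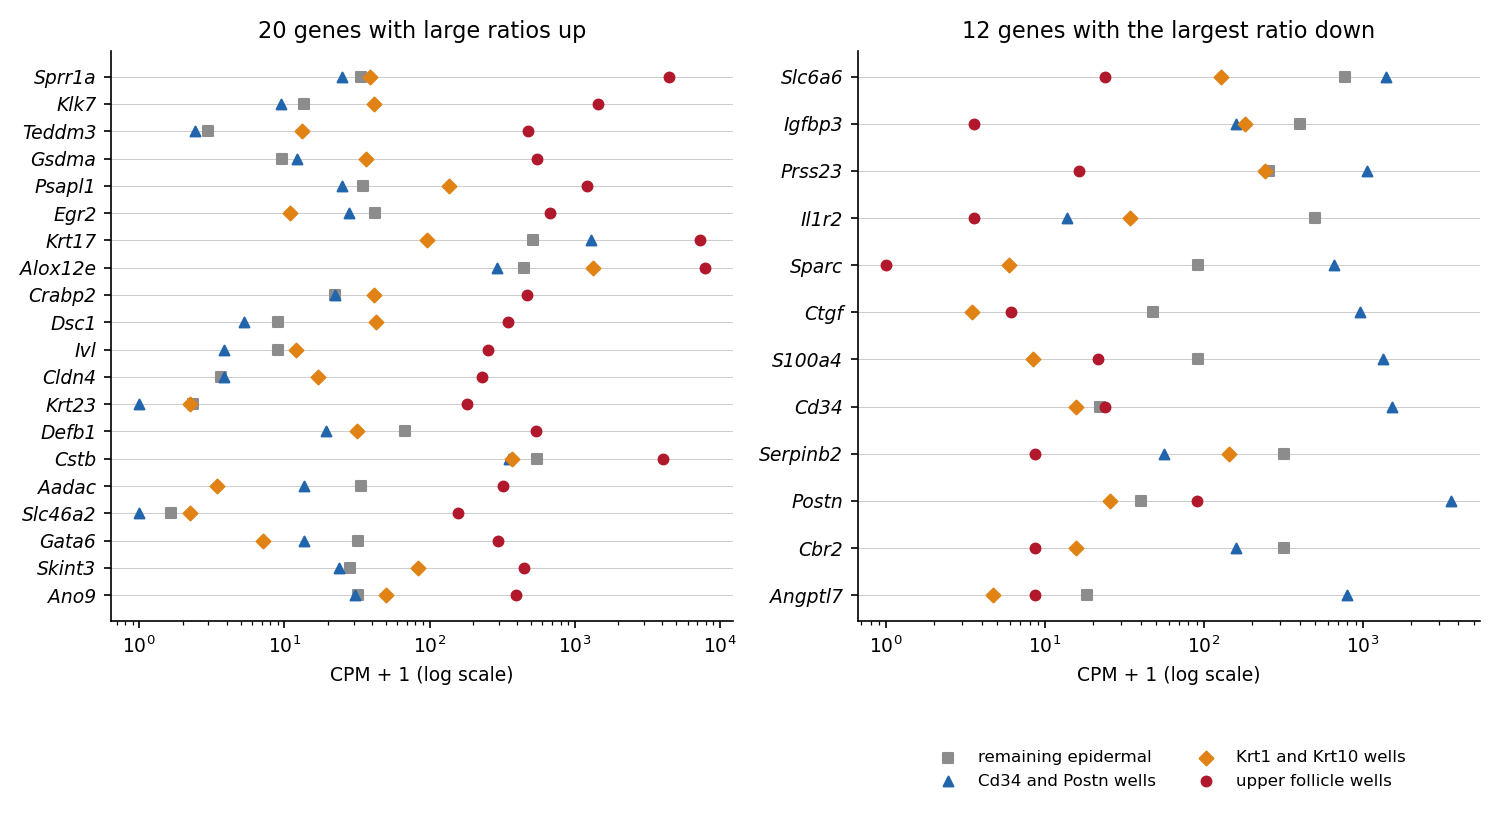
CPM plus 1 (log scale) of 20 genes outside the rule with large ratios up (left) and the 12 with the largest ratio down (right), both with 20 CPM added, in the upper follicle wells, the *Krt1* and *Krt10* wells, the *Cd34* and *Postn* wells and the remaining epidermal wells. For each of the 20 genes the upper follicle wells are farthest right, as for *Krt17* at 7301 CPM. *Cd34* and *Postn* define 1 group of the others and are high there by that choice.

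Genes of the upper follicle and junctional zone were mostly higher. Outside the rule, 11 of the 15 described genes of this list were higher, 0 lower and 4 neither, with a median log2 ratio of 2.96. Beside those above they included *Plet1*, a surface protein of the junctional zone (420 against 41.7 CPM), *Defb1*, a second beta-defensin (543 against 45.7 CPM), and *Lrig1*, a feedback inhibitor of EGF receptor signalling that marks junctional zone stem cells (118 against 31.2 CPM). *Lgr6*, a receptor of isthmus stem cells, had no transcript in the upper follicle wells and 10.5 CPM in the others, which is near the 7.67 CPM that a count of 0 allows there. *Fst* and *Dusp1* were not called either way. The 22 measured sebaceous gland genes summed to between 1153 and 1508 CPM per plate in the upper follicle wells and to between 758 and 1507 CPM in the other wells. Of 14 described, 1 was higher (*Ldhb*), 3 lower and 10 neither, and *Scd1*, the desaturase of sebocytes, was at 40.9 against 160 CPM.

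Genes of cornification and proteolysis were divided. Of 12 described genes of the granular layer and cornified envelope, 3 were higher, 2 lower and 7 neither (median log2 ratio 0.92). *Ivl*, which encodes involucrin, was at 253 against 7.55 CPM, and *Scel*, which encodes sciellin, at 842 against 392 CPM. *Asprv1* and *Cdsn*, at 254 and 221 CPM against 8.87 and 15.1 CPM, were not called because they were not higher on every plate: 722 CPM of *Asprv1* stood in traced mouse 1 and 0 CPM in Troy-EGFP mouse 4. *Krt1* and *Krt10* were kept low by the rule, and of 12 further spinous layer genes 1 was higher, 2 lower and 9 neither. The higher one was *Dsc1*, which encodes the desmosomal cadherin desmocollin 1 (345 against 16.8 CPM). *Krtdap*, a gene of early differentiation, was at 1344 against 1484 CPM. Of 16 kallikrein and other protease genes, 5 were higher, 1 lower and 10 neither, and *Klk5*, which acts with *Klk7* in shedding, was at 218 against 24.3 CPM. *Ctsd*, which encodes cathepsin D, was at 604 against 175 CPM. Of 13 protease inhibitors outside the rule, *Cstb* and *Spint2* (461 against 180 CPM) were higher, 4 were lower and 7 neither.

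Among 9 genes of innate defence outside the rule, 4 were higher and 3 lower. *Pla2g2f*, a secreted epidermal phospholipase, was at 540 against 99.9 CPM, *Pglyrp4*, a peptidoglycan recognition protein, at 215 against 32.8 CPM, and *Cxcl16* at 177 against 63.1 CPM. The chemokine *Cxcl14* and the alarmin *Il33* were lower, at 76.8 and 2.56 CPM against 354 and 80.1 CPM. Of 15 lipid genes 4 were higher and 0 lower. *Apoe*, which carries lipids between cells, was at 19876 against 6528 CPM, and varied from 3454 CPM in Troy-EGFP mouse 2 to 31363 CPM in traced mouse 1. *Crabp2*, a retinoic acid binding protein, was at 471 against 26.6 CPM. Of 25 junction genes 5 were higher and 2 lower. *Epcam*, *Cldn1* and *Cldn4* were among the higher ones, with *Cldn4* at 230 against 6.24 CPM, and the gap junction genes *Gja1* and *Gjb5* were lower, with *Gja1* at 15.4 against 207 CPM.

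Transcription factor genes went both ways, with 8 of 44 higher, 13 lower and 23 neither. *Foxc1* was at 676 against 139 CPM, and *Sox7*, *Zfp750*, *Grhl1*, *Ovol1* and *Ehf* were at 218, 274, 248, 107 and 105 CPM against 14.4, 78.2, 70, 34.5 and 7.88 CPM. *Sox7* differed among the plates, at 18.8 and 30.5 CPM in Troy-EGFP mice 3 and 4 and 372 and 302 CPM in the traced mice. *Gata3*, at 328 against 1193 CPM, was lower, so the 2 GATA genes *Gata6* and *Gata3* differed in direction. *Egr2*, at 673 against 29.2 CPM, was the only gene higher of 24 AP-1, immediate early and stress genes, and its 5 plates lay close together, at 907, 604, 671, 661 and 632 CPM. Of 16 Notch pathway genes 2 were higher and 2 lower, among them *Nrarp*, a target of Notch (412 against 93.9 CPM), and the ligand gene *Dll1* (10.2 against 41 CPM). Of 11 EGF family genes *Erbb2* (128 against 35.1 CPM) and *Lrig1* were higher and 0 lower. Of 8 TNF receptor genes, *Ltbr* was higher and 7, *Tnfrsf19* among them, were neither.

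Genes of the basal layer were mostly lower, though not absent. Of 17 genes, 10 were lower, 6 neither and *Cd44* higher (median log2 ratio -1.23). *Krt5*, the partner keratin of *Krt14*, was at 5368, 4731, 1452, 2644 and 2539 CPM in the upper follicle wells of the 5 plates and at 9950.2 to 16338 CPM in the other epidermal wells. The 2 did not overlap on any plate. *Col17a1* and *Dst*, which anchor basal cells to the basement membrane, were at 343 and 438 CPM against 1839.5 and 1847 CPM. *Krt14*, at 2188 against 4128 CPM, was called neither. The 17 genes summed to between 5391 and 12789 CPM per plate in the upper follicle wells and to between 21983 and 27537 CPM in the other wells.

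Genes of the bulge and lower follicle were lower in 13 of 22 cases, with 1 higher (*Cd200*) and 8 neither. The median log2 ratio was -1.53, or -1.30 with the 3 genes that had no transcript in these wells set to the level that 3 transcripts would give. *Postn* was at 598, 151, 15.3, 0 and 9.15 CPM in the upper follicle wells of the 5 plates, against 551 to 1564 CPM in the other epidermal wells, and *Cd34* was at 23 against 368 CPM. *Lhx2* and *Angptl7* were lower too. *Krt15* and *Sox9*, at 4001 and 694 CPM against 7683 and 514 CPM, were neither. *Krt15* differed between plates in both kinds of wells, at 1284 and 1942 CPM in the upper follicle wells of Troy-EGFP mice 3 and 4 and at 5153 and 6198 CPM in the traced mice, with 1555 and 1714 CPM and 13729 and 14032 CPM in the other wells of these plates.

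Outside these lists, *Slc6a6*, the taurine transporter, had the largest ratio down with 20 CPM added to both sides, at 23 against 741 CPM, with at most 36.6 CPM in the upper follicle wells of any plate and at least 434 CPM in the other wells. *Sparc*, which encodes a matrix protein, had no transcript in the 107 wells and 607 in the others, at least 26-fold lower at a floor of 3 transcripts over all upper follicle wells. *Igfbp3* had 1 transcript against 868 and *Il1r2*, the decoy receptor of interleukin 1, 1 against 785, which is 111-fold lower (counting interval 19.9 to 4406) and 101-fold lower (18 to 3985) in CPM. *Ctgf*, *Serpinb2*, *Cbr2* and *Angptl7* had 2, 3, 3 and 3 transcripts, or 48.2-fold (13.3 to 399), 27.1-fold (9.24 to 132), 25.9-fold (8.83 to 126) and 25.2-fold (8.6 to 123) lower. *Prss23* was at 15.3 against 438 CPM. The metallothionein genes *Mt1* and *Mt2* were at 238 and 61.4 CPM against 1759 and 538 CPM, and of 25 glutathione, xenobiotic and metallothionein genes 6 were lower, 3 higher and 16 neither. The glutathione transferase genes *Gstm5*, *Gstm1* and *Gstm2* were the higher ones, at 732, 607 and 517 CPM against 117, 138 and 178 CPM. The S100 genes *S100a6*, *S100a10* and *S100a4* were among 5 of 8 that were lower.

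Genes of DNA replication and mitosis were neither in 21 of 26 cases, 5 were lower and 0 higher, with a median log2 ratio of -0.76, or -0.66 with the 6 genes at 0 set to 3 transcripts. The plates differed in direction: the 27 listed genes summed to 2697 against 2115 CPM in Troy-EGFP mouse 2 and to at most 1125 CPM against 1389.5 to 3873 CPM on the other 4 plates. *Mki67* had 2 transcripts in 2 of the 107 wells (1.87%), against 6.02% of the other epidermal wells. The other wells' *Mki67* level differed with the plate, from 0 to 232 CPM, so at this depth a difference is visible mainly in the traced plates, where it was at 0 and 9.15 CPM against 232 and 72.7 CPM.

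The bulk libraries were not used to choose the wells, so genes called in the wells could be tested there. Both the EGFP- and the EGFP+ cells were ITGA6bright. In the paper's clusters of single cells, ITGA6-negative cells fell mainly in the upper follicle cluster. There the ITGA6bright EGFP- cells were enriched in the lower follicle cluster, so the EGFP- libraries cannot be read as upper follicle cells alone. Libraries held 157537 and 188225 counts for ITGA6bright EGFP- cells, 403899 and 237223 for ITGA6bright EGFP+ cells and 305147 and 453005 for viable cells. CPM in bulk were scaled by TMM library sizes, and p-values of the quasi-likelihood test in edgeR were adjusted by Benjamini and Hochberg's method over 4653 genes. Of these, 189 (4.06%) were higher and 139 (2.99%) lower in EGFP- than in EGFP+ cells. Against viable cells, 43 (0.924%) were higher and 40 (0.86%) lower in EGFP- cells. In bulk, more cells of a type and more RNA per cell cannot be told apart.

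Of the 6 upper follicle markers, 4 rose in EGFP- against EGFP+ cells. *Defb6* was at 2649.8 and 927 CPM in the EGFP- libraries of mice 1 and 2 and at 83.1 and 108 CPM in the EGFP+ libraries, a log2 fold change of 4.23 ± 0.44 (SE, adjusted p = 1.13e-05). *Cst6* was at 559 and 356 CPM against 45.6 and 40.6 CPM (3.37 ± 0.373, adjusted p = 1.36e-05). *Krt79* was at 3895 and 1673 CPM against 287 and 329 CPM (3.18 ± 0.382, adjusted p = 2.18e-05). *Gata6* was at 143 and 525 CPM against 21.4 and 63.1 CPM (3.15 ± 0.535, adjusted p = 0.000743). In each of these 4 genes both EGFP- libraries lay above both EGFP+ libraries. *Klk7* and *Sprr1a* did not pass, with log2 fold changes of 1.88 ± 0.589 (adjusted p = 0.059) and 1.91 ± 0.657 (adjusted p = 0.0874), from 8 to 25 and 5 to 15 counts in the EGFP- libraries. Against viable cells *Defb6* alone of these 6 markers passed (1.70 ± 0.374, adjusted p = 0.019). *Gata6*, *Krt79* and *Cst6* did not, with 1.11 ± 0.432 (adjusted p = 0.231), 0.90 ± 0.346 (adjusted p = 0.229) and -0.16 ± 0.29 (adjusted p = 0.878), and *Cst6* was at 577 and 440 CPM in viable cells. *Klk7* and *Sprr1a* had adjusted p = 0.791 and 0.899.

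Of the genes higher in the upper follicle wells, 149 were tested in bulk. In EGFP- against EGFP+ cells 47 of them (31.5%) were higher and 2 lower, against 4.06% and 2.99% of all genes tested, and their median log2 fold change was 0.85 against 0.04 over all genes. Of 238 tested genes that were lower in the wells, 53 (22.3%) were lower in EGFP- cells and 13 higher, with a median of -0.63. Among 4192 genes that were neither in the wells, 121 (2.89%) were higher and 80 (1.91%) lower. Against viable cells 15 of the 149 (10.1%) were higher and 2 lower, and 26 of the 238 (10.9%) were lower and 0 higher, against 0.924% and 0.86% of all genes tested. With mouse as a replicate block, 26 of the 149 were higher and 42 of the 238 lower against viable cells, and 163 genes were called in all in place of 83. The counts rest on 2 libraries a group: without EGFP+ replicate 1 the EGFP- against EGFP+ counts were 26 of 153 and 30 of 256, and without viable replicate 1 or 2 those against viable cells were 4 and 4 higher and 10 and 11 lower. Without EGFP- replicate 2 they were 30 of 162 higher and 58 of 276 lower against viable cells. A population left with 1 library was assumed to vary like the others.

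**Figure D4:**
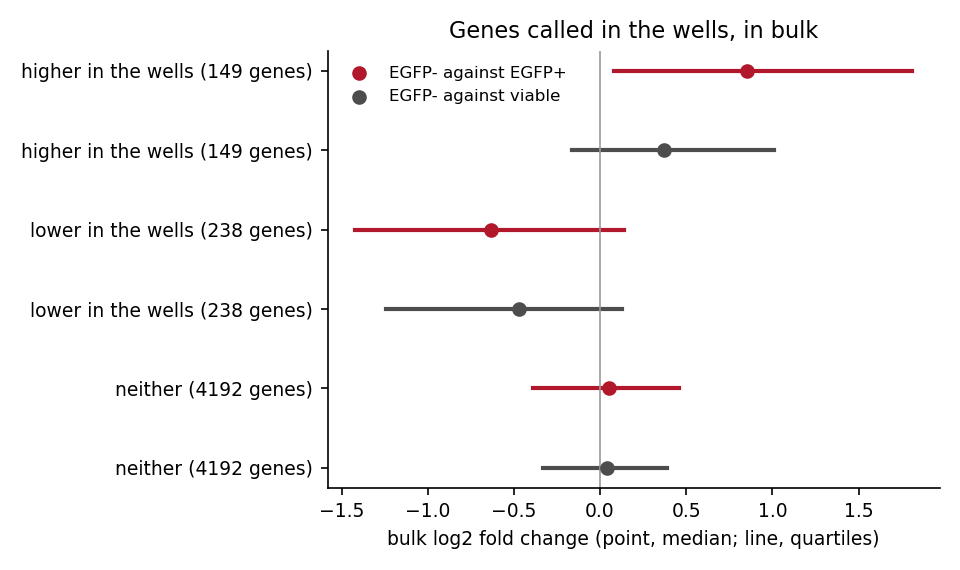
Median (point) and quartiles (line) of the bulk log2 fold change of EGFP- against EGFP+ cells and against viable cells, for the genes higher, lower or neither in the upper follicle wells. The 149 genes higher in the wells have a median of 0.85 against EGFP+ cells, and the 238 lower ones a median of -0.63.

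Among the named genes, *Foxc1* had a log2 fold change of 4.18 ± 0.364 in EGFP- against EGFP+ cells (adjusted p = 1.04e-06), with 483 and 560 CPM against 32.2 and 22.6 CPM. *Plet1* was at 196 and 181 CPM against 10.7 and 27.1 CPM (3.43 ± 0.448, adjusted p = 4.87e-05), and *Egr2* at 589 and 373 CPM against 67 and 81.2 CPM (2.70 ± 0.338, adjusted p = 3.03e-05). These 3 rose against viable cells too, by 1.42, 1.80 and 1.62 (adjusted p = 0.00909, 0.00953 and 0.00617). *Crabp2*, *Ano9*, *Gstm5*, *Defb1*, *Skint3*, *Alox12e*, *Aadac*, *Psapl1*, *Lrig1*, *Apoe* and *Cstb* rose against EGFP+ cells, with log2 fold changes from 3.43 (*Crabp2*) to 1.15 (*Cstb*). *Gsdma* (2.13 ± 0.73, adjusted p = 0.0868) did not pass. Other named genes with more CPM in the upper follicle wells did not pass either, among them *Gstm1*, *Ctsd*, *Grhl1*, *Cxcl16*, *Gstm2* and *Ehf*. Their log2 fold changes ran from 1.36 (*Gstm1*, adjusted p = 0.0642) to 0.27 (*Ehf*, adjusted p = 0.874). *Teddm3*, *Dsc1*, *Ivl*, *Cldn4*, *Krt23*, *Slc46a2* and *Atp6v1c2* had too few counts to be tested.

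*Krt17*, abundant in the upper follicle wells, was highest in viable cells. It was at 423 and 542 CPM in EGFP- cells, at 265 and 338 CPM in EGFP+ cells (0.69 ± 0.321, adjusted p = 0.225) and at 1593 and 1086 CPM in viable cells, so it was lower in EGFP- than in viable cells (-1.46 ± 0.308, adjusted p = 0.0143). Genes that were low in the wells also fell in EGFP- cells in several cases: the log2 fold change was -2.99 for *Il1r2* (adjusted p = 0.000492), -2.24 for *Serpinb2* (adjusted p = 0.00228), -1.68 for *Gata3* (adjusted p = 0.00138), -1.46 for *Cbr2* (adjusted p = 0.00401) and -1.07 for *Slc6a6* (adjusted p = 0.0436). *S100a4*, *S100a6* and *Lhx2* went the other way, low in the upper follicle wells and higher in EGFP- than in EGFP+ cells by 3.29, 1.88 and 3.11 (adjusted p = 0.00499, 0.000492 and 0.000121). Among the wells all 3 were highest in those with *Cd34* and *Postn*, at 1338, 5891 and 1640.4 CPM. Markers of other cell types moved too: all 5 tested Langerhans cell markers were higher in it than in EGFP+ cells (median log2 fold change 3.51), with *Cd74* at 136 and 64.1 CPM against 0 and 18 CPM and *H2-Aa* at 370 and 315 CPM against 42.9 and 31.6 CPM, as were 1 of 2 T cell and 1 of 1 melanocyte markers. Their part in the results above was not tested. *Tnfrsf19* was at 22.6 and 35 CPM in EGFP- cells and 110 and 72.2 CPM in EGFP+ cells (-1.65 ± 0.485, adjusted p = 0.0434).

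**Figure D5:**
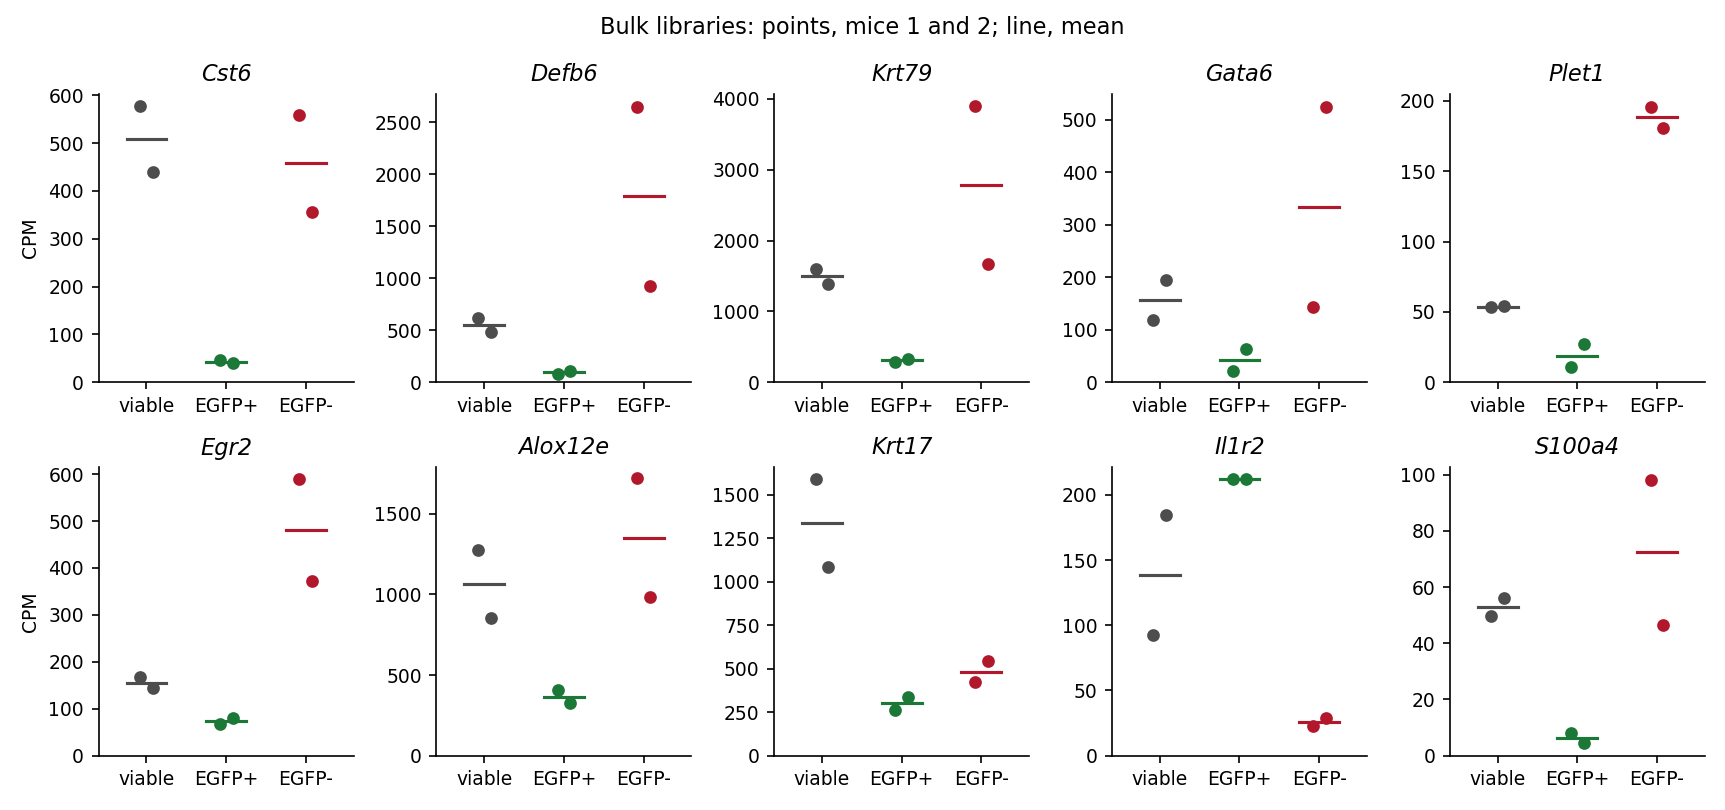
CPM of 10 genes in the viable, EGFP+ and EGFP- bulk libraries of mice 1 and 2 (points) with the mean of each population (line), each panel starting at 0. For *Cst6*, *Defb6*, *Krt79*, *Gata6*, *Plet1*, *Egr2* and *Alox12e* both EGFP- libraries lie above both EGFP+ libraries, *Krt17* is highest in viable cells, and *Il1r2*, at 22.6 and 29.2 CPM, is lowest in EGFP- cells.

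The traced and Troy-EGFP plates were compared within the upper follicle wells, on transcripts summed per plate, with 3 Troy-EGFP and 2 traced plates. In edgeR, with p-values adjusted the same way, 10 of 1259 genes (0.794%) differed. *Slc43a2*, *Fxyd3*, *Tubb4b* and *Tecr* were higher in the traced plates, by 3.36, 3.28, 2.98 and 2.36 on the log2 scale, and *Gm10785*, *A130077B15Rik*, *Gm17821*, *A630089N07Rik*, *Rpl14* and *Rps23* were lower, by -4.93, -4.74, -3.69, -3.54, -3.46 and -2.20 (adjusted p between 0.0424 and 0.0481). *Slc43a2* had 1, 2 and 3 transcripts in the Troy-EGFP plates and 50 and 51 in the traced plates, also rose in bulk EGFP- against EGFP+ cells (log2 fold change 3.46, adjusted p = 1.36e-05), and *Rpl14* was at 597, 1566 and 1633 CPM against 157 and 101 CPM. The other epidermal wells differed alike, with *Rpl14* at 912, 2517 and 2264 CPM against 201 and 161 CPM and *Fxyd3* at 102, 32.8 and 31.1 CPM against 651 and 660 CPM. Between 0 and 226 genes passed when 1 plate was left out, with 0 in edgeR without Troy-EGFP replicate 3 or 4 or traced replicate 1 (167, 127 and 65 at an unadjusted p under 0.05), 1 without traced replicate 2 and 226 without Troy-EGFP replicate 2.

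None of the upper follicle markers outside the rule passed this test in edgeR. *Klk7* had a log2 difference of 1.58 ± 0.62 between traced and Troy-EGFP plates (adjusted p = 0.355), *Sprr1a* 0.92 ± 0.53 (adjusted p = 0.53) and *Gata6* -0.97 ± 0.465 (adjusted p = 0.447). *Egr2* and *Krt17*, at -0.30 ± 0.396 and -0.02 ± 0.42, differed by less than their errors. *Klk7* is the widest of these over the plates, since traced mouse 1 held 379 of its 570 transcripts.

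Whether the 2 experiments differed more in upper follicle wells than in other epidermal wells was tested as an interaction with the plate as a block. By edgeR's quasi-likelihood test 4 of 5022 genes (0.0796%) passed: *Cpe* at 3.21 ± 0.666 (adjusted p = 0.00364), *Egr1* at -2.35 ± 0.538 (adjusted p = 0.0158), *Postn* at -4.33 ± 0.942 (adjusted p = 0.00732) and *Htra1* at -8.11 ± 1.67 (adjusted p = 0.00364). *Cpe*, which encodes carboxypeptidase E, had 1, 2 and 3 transcripts in the upper follicle wells of the Troy-EGFP plates and 127 and 16 in the traced plates. *Postn* had 25, 8 and 1 transcripts in these wells of the Troy-EGFP plates and 0 and 1 in the traced plates. *Htra1*, a secreted serine protease gene, had 0, 20 and 4 against 0 and 0, so its fitted value is no bound. *Egr1* was at 908, 37.7 and 122 CPM in the upper follicle wells of the Troy-EGFP plates and at 190 and 247 CPM in the traced plates, against 85.4, 29.3 and 29.8 CPM and 246 and 190 CPM in the other wells. Leaving out a plate gave between 0 and 10 genes: 0 without traced replicate 1 (174 at an unadjusted p under 0.05), 1 without traced replicate 2 and 10 without Troy-EGFP replicate 3. Without the plate as a replicate block 0 genes passed in edgeR, with 159 at an unadjusted p under 0.05. With DESeq2 and with wells thinned to 1000 transcripts 0 passed too, with 113 and 91 at an unadjusted p under 0.05.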

How the data were processed

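Epidermal cells were sorted into 6 plates (SORT-seq) and 6 bulk CEL-Seq2 libraries. Per the submitters' processing notes, reads were aligned with BWA 0.6.2-r126 to mm10 (GRCm38; hg19 is also named). The single-cell tables as deposited by the authors hold transcripts estimated from molecular barcodes, corrected for repeated barcodes. Their values turn back into whole barcodes for 4096 possible barcodes (6 bases), while the labels state fewer bases. The bulk tables as deposited by the authors hold whole-number counts per gene, from 157537 to 453005 per library.

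The upper follicle wells, gene lists and rules were chosen with earlier results of these data known. ERCC and mitochondrial rows were left out. Tables of Troy-EGFP mice 3 and 4 use older symbols, so 278 symbols were merged through RefSeq synonyms, and 14971 of 18556 genes were listed in both sets. By the names of the deposited tables Troy-EGFP mice 1 and 2 were male and 3 and 4 female, and the traced mice were male by the methods. CPM were computed on summed wells. Of 24 lists with 559 genes, members were counted by call, and up to 8 per list were named by transcripts or ratio, with the 20 genes of largest ratio up and the 12 down. Some genes that these rules would name are not reported here.

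Bulk counts and rounded plate sums of transcripts were tested in edgeR 4.0.16 (R 4.3.3; quasi-likelihood, TMM, filterByExpr, adjusted p under 0.05), the bulk fit using all 6 libraries. The scripts were tested on simulated data. DESeq2 1.42.0, which the authors used for bulk, other normalization, filters, thresholds, depths and left-out libraries were alternatives. The 3 populations of a bulk mouse come from the same animal and are paired (correlation of deviations 0.0554 to 0.0933), and the replicate block was tried. Plates are single mice, and bulk rests on 2 mice. Intervals cover counting error only. The sorting gate of each well was not used here.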

Additional observations from a re-analysis of the deposited data

Results flagged for a closer look

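The share of upper follicle wells was 0% in Troy-EGFP mouse 1 (0 of 27 epidermal wells, which allows up to 11.1% at a floor of 3 wells), against 9.65%, 9.2% and 9.6% in the other 3 Troy-EGFP plates. The 95% exact binomial interval of this plate, 0 to 12.8%, holds these 3 shares. The gap of this plate to the nearest one exceeded Dixon's 95% critical value of 0.829 for 4 samples, a rule that takes no account of counting error. Chance alone marks about 1 in 20 groups in this way, and 3 groups were examined.

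The traced and Troy-EGFP plates differed to another extent in the upper follicle wells than in the other epidermal wells for 4 genes, by the interaction in edgeR. The interaction was 3.21 for *Cpe*, -2.35 for *Egr1*, -8.11 for *Htra1* and -4.33 for *Postn*. With DESeq2, without the plate as a replicate block or with wells thinned to 1000 transcripts 0 genes passed, with 113, 159 and 91 at an unadjusted p under 0.05. In the upper follicle wells *Cpe* rested mostly on traced mouse 1, with 127 of 149 transcripts, *Htra1* on Troy-EGFP mouse 3, with 20 of 24, and *Postn* on Troy-EGFP mouse 2, with 25 of 35. *Egr1* had 38 of its 98 transcripts in Troy-EGFP mouse 2.

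Among the wells removed for MHC class II transcripts, 2 passed the 0.4% threshold of *Cst6*, *Defb6* and *Krt79*, at 2.31% and 2.07%, with 19 and 28 transcripts of *Cd74*, *H2-Ab1* and *H2-Aa* and a median of 4978 transcripts in all. Of the wells removed for T cell transcripts 0 passed it.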

How the results depend on the processing

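Only a part of the called genes, chosen from those named, was followed gene by gene under the alternatives, and no called value among these changed sign. The signs of the other called genes were not checked. The balance of calls did move. In EGFP- against EGFP+ bulk cells 328 genes were called (189 higher and 139 lower). DESeq2 called 141 (70 higher and 71 lower) and shared 135 with the 328. With no filter 193 were higher and 216 lower, and the EGFP+ and EGFP- libraries alone gave 151. The replicate block gave 468, which held all 328. Leaving out a library gave 131 to 751. Against viable cells 83 genes became 163 with the replicate block, 33 with DESeq2 (9 higher and 24 lower), 133 with no filter and 27 to 464 without a library.

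Each setting tests its own set of genes, so the next counts are not parts of one another. The count of well-higher genes that were higher in EGFP- against EGFP+ cells was 47, and 25 in DESeq2, 28 with those libraries alone and 26 to 53 without a library. Against viable cells 15 became 26 with the replicate block, 6 with DESeq2 and 4 to 30 without a library. For the well-lower genes, 53 became 34 with those libraries alone and 30 to 77 without a library. Against viable cells 26 became 42 with the replicate block, 13 with DESeq2, 41 with no filter and 10 to 58 without a library.

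Between traced and Troy-EGFP plates 10 genes (4 higher and 6 lower) became 16 with DESeq2 (6 and 10) and 58 with no filter (30 and 28). They became 165 with at least 2000 transcripts in a well (103 and 62), and 0 to 226 without a Troy-EGFP plate (151 and 75 at most). With wells thinned to 1000 transcripts 7 of 278 genes tested were called (0 higher and 7 lower). In edgeR 0 passed with symbols not merged, an alternative chosen after seeing the data, with 142 at an unadjusted p under 0.05. Male plates alone left Troy-EGFP mouse 2 as the only Troy-EGFP plate with upper follicle wells, so no count is given for them. The 4 interactions became 0 in DESeq2, 0 with no replicate block in edgeR and 0 with wells thinned to 1000 transcripts, with 113, 159 and 91 at an unadjusted p under 0.05, and 0 to 10 without a plate. The 361 genes lower in the wells became 811 with 5 CPM added and 128 with 50 CPM. A minimum of 3 wells in a plate kept the same plates and gave no other value. The cause of these shifts was not tested. Library depth and 2 mice a population limit the bulk tests, and the 107 wells limit genes of few transcripts.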
